A study of Mus musculus with 6 samples.

Results

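Solute carriers are membrane proteins that move amino acids, sugars, ions, metals, nucleosides and cofactors across the plasma membrane and the membranes of organelles. Mouse symbols of the type Slc, a family number, a letter and a member number name them. The set described here was made of all such symbols in the count table less 8 genes of arginine, cystine, glucose and iron transport (Slc7a1, Slc7a2, Slc7a11, Slc2a1, Slc40a1, Slc11a1, Slc11a2 and Slc48a1), with 10 or more counts in at least 3 of the 6 libraries. Of 359 matching symbols, 351 remained after the 8 were left out, 187 of them reached the minimum and 164 did not, and 85 of the latter were at 0 throughout. The table held 21878 genes in all. Members were thus chosen by their counts in all 6 libraries, without regard to group. Still, 11 members reached it through 1 group alone (7 through PBS and 4 through β-elemene), so that they had to differ. Counts of all members, and of each class that holds such members, are given with and without them. In the text, those named are given by their values with no test. Just inside the minimum, Slc25a29 had 2, 7 and 10 counts with β-elemene and 9, 16 and 13 with PBS. Just outside it, Slc22a17 had 3, 10 and 6 counts with β-elemene and 16, 9 and 6 with PBS.

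Macrophages use these carriers to feed on what they engulf and to shape the space around pathogens and tumour cells. Lysosomal carriers return amino acids, peptides, sugars and nucleosides from digested cargo to the cytosol, and some of them report the amino acid content of the lysosome to the kinase mTORC1. Carriers of the Slc25 family link the metabolism of the cytosol with that of the mitochondrion, and zinc carriers of the Slc30 and Slc39 families lower and raise cytosolic zinc, respectively.

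The RNA came from wild-type macrophages grown out of C57BL/6 mouse bone marrow under 50 ng/mL of macrophage colony-stimulating factor. Both groups had first shared medium with LLC cells, a line from a mouse lung carcinoma, on the other side of a membrane with 0.4 µm pores for 48 h. After a change of medium, 3 samples were given 100 µg/mL of the plant sesquiterpene β-elemene for 24 h, and 3 were given the same volume of phosphate-buffered saline (PBS). No macrophages without LLC contact are part of this comparison, no source used here gives the age of the mice, and the labels do not tell if replicates are separate cultures or animals. The p-values therefore reflect only how far these libraries differ from each other, and that spread may be technical. Libraries held 18916844 to 20729887 counts. Levels are CPM, that is counts scaled to a common library total after TMM normalisation, given for replicates 1, 2 and 3 in that order, or as mean ± SD with n = 3 per group. A count of 0 allows up to 3 counts, or 0.116 to 0.195 CPM depending on the library, for counting error only. Log2 fold changes set β-elemene over PBS.

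All 8 macrophage marker genes were detected, and 6 were higher and 2 lower with β-elemene. Their sum, 16588 to 17158 CPM with β-elemene against 12710.1 to 13684 with PBS, was mostly Lyz2, while Csf1r, the receptor of the growth factor in the medium, fell from 2672 ± 82.3 to 928 ± 66.1 CPM and Itgam from 1028 ± 99.8 to 861 ± 36.6. Before scaling, Lyz2 had 143154, 147444 and 150139 counts with β-elemene and 163674, 180106 and 179327 with PBS. Cd68 was lower before scaling as well, and the groups of Adgre1 overlapped. The rises of these genes and of the sum therefore depend on the scaling, while Fcgr1, Mertk and Cd14 were higher before scaling too. The 7 epithelial markers were at the level of a few reads, with 0 to 0.194 CPM in total per PBS library and 0.0615 to 0.195 per β-elemene library, and Krt19 and Cldn4 had no count. Erythroid and lymphoid markers summed to at most 0.858 CPM in any library. Fibroblast markers summed to 13.2 to 17.2 CPM with PBS and 1.89 to 4.43 with β-elemene, with Pdgfra at or below 0.155 in every library and with 3 of the 5 tested lower. Neutrophil markers summed to 10.8 to 15.1 CPM with PBS and 27.4 to 32.1 with β-elemene, of which S100a8, S100a9, Camp and Ngp were higher, Mpo lower and Ly6g at 0 in all PBS libraries. Dendritic markers summed to 8.04 to 9.36 CPM with PBS and 4.30 to 10.98 with β-elemene, with Clec9a and Ccr7 higher and Cd209a and Zbtb46 lower. The part of such cells in the changes below was not tested. In bulk RNA, fewer cells of a type and less RNA per cell cannot be told apart.

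Of 186 members tested, 59 were higher and 88 lower in the β-elemene libraries, and 39 did not pass (edgeR quasi-likelihood test, Benjamini-Hochberg adjusted p below 0.05). Among all 11459 genes tested, 36.6% were higher and 40.2% lower, 76.7% in all, so that the members' 147 calls lie close to the background. When libraries were scaled by their totals only, here called library size alone, 30 members were higher and 136 lower, and with the upper quartile 46 and 114. Under them the median over all genes tested shifted by -0.64 and -0.32 on the log2 scale, respectively. The directions below therefore stand relative to the other genes of these libraries. Of the 59 members called higher, 30 were called higher under each of the 3 other scalings tried, and of the 88 called lower 86 were called lower. Of the 186 members, 153 had groups that did not overlap, against 79.9% of all genes tested.

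The size of the changes varied more between members than the counts convey. At least 2-fold differences were called for 28 members in the direction of β-elemene (17.0% of all genes tested) and for 44 in the direction of PBS (18.3% of all genes). At least 8-fold, 8 were higher and 7 lower, where 4.55% and 3.12% of all genes were. Without the 11 members that reached the minimum through 1 group alone, 55 of 175 were higher and 81 lower, and 5 were at least 8-fold higher and 1 at least 8-fold lower, so that 6 of the 7 largest falls belong to genes near the detection limit with β-elemene. The median log2 fold change was -0.21 over the 186, beside -0.06 over all genes tested.

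**Figure D1:**
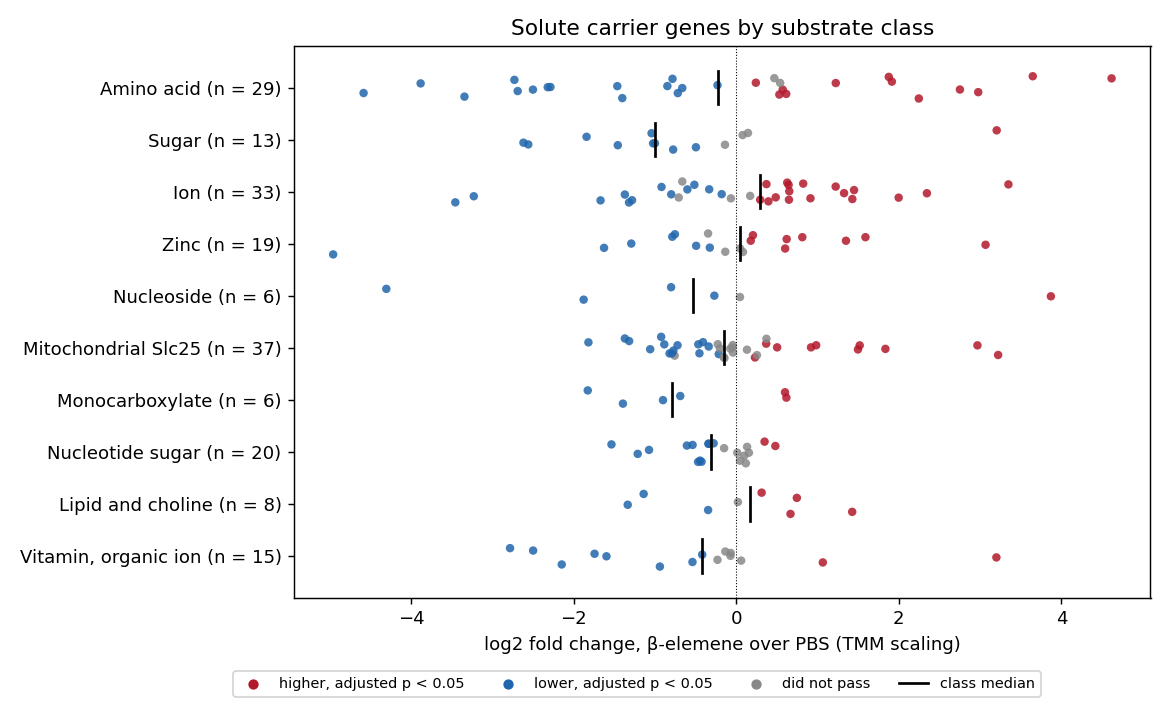
Log2 fold change of the 186 tested solute carrier genes (β-elemene over PBS, TMM scaling) by substrate class, 1 point per gene, vertical lines for class medians. Sugar carriers have their median at -1.0 with Slc2a6 alone on the right at 3.20, while ion carriers spread to both sides around 0.29; with library size alone the ion median was -0.34 and the zinc median, 0.05 here, was -0.59.

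The order of the most abundant members changed between the groups. Levels between genes are compared here as CPM per kilobase of exon sequence. With PBS the list was led by Slc25a5, the adenine nucleotide carrier ANT2, at 204 CPM per kilobase, followed by Slc3a2 at 136 and Slc31a2 at 107. With β-elemene it was led by Slc2a6 at 388 CPM per kilobase, Slc15a3 at 372 and Slc31a2 at 269.6, with Slc25a5 in rank 4 at 161. Slc2a6 had held rank 11 with PBS at 42.1, and Slc28a2 was at rank 8 with β-elemene at 128 but not among the first 12 with PBS. Slc37a2 was at rank 6 with PBS at 65.9 and not among the first 12 with β-elemene. All members together held 1.11% to 1.17% of the counts with β-elemene against 1.18% to 1.19% with PBS. The share of the amino acid carriers was 0.397% to 0.423% with β-elemene against 0.347% to 0.356% with PBS, and that of the Slc25 carriers 0.152% to 0.158% and 0.196% to 0.205%.

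**Figure D2:**
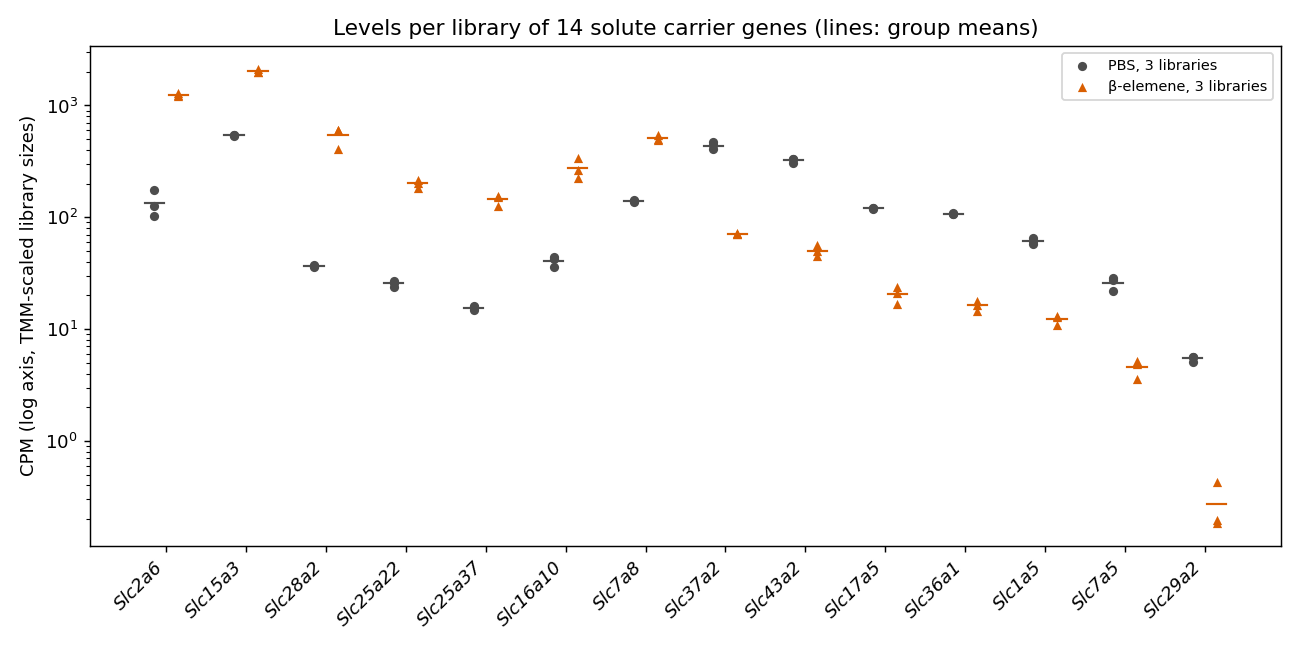
CPM per library (log axis) of 14 solute carrier genes, circles for the 3 PBS and triangles for the 3 β-elemene libraries, lines for group means. Slc2a6 to Slc7a8 on the left are higher and Slc37a2 to Slc29a2 on the right lower in every β-elemene library than in any PBS library.

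Nearly all amino acid and peptide carriers were called, where 76.7% of all genes tested were. Of 29 tested, 12 were higher, 15 lower and 2 did not pass (8 and 16 with library size alone), and 18 changed at least 2-fold, 8 up and 10 down. Without the 5 members that reached the minimum through 1 group alone, 10 of 24 were higher and 12 lower, 13 changed at least 2-fold, where 35.3% of all genes tested did, and the median size of the change, without sign, was 1.31 on the log2 scale, beside 0.64 over all genes tested. The class median was -0.23. The 8 members called higher under each scaling tried included Slc6a12, Slc16a10, Slc6a19, Slc15a3, Slc7a8 and Slc6a6. Slc1a2 was among them too, but it reached the count minimum through β-elemene alone and so had to differ.

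The peptide carrier Slc15a3 (chromosome 19, 10842544 to 10857915, GRCm38.p6), a proton-coupled exporter of histidine and bacterial peptides from lysosomes and endosomes, was the most abundant of the class by CPM (per kilobase of exon, Slc3a2 was above it with PBS). Its level was 2135, 1977 and 2011 CPM with β-elemene and 549.9, 546 and 528 CPM with PBS. Each β-elemene library held more than 3 times the highest PBS value, and the replicates lay close together (log2 fold change 1.91, SE 0.06, edgeR adjusted p = 8.73e-12). Its exons share 1541 bases with Tmem132a on the opposite strand, which stood at 5.13 CPM on average and did not follow it (log2 fold change -0.11). The related Slc15a4, which anchors interferon signalling from endosomal Toll-like receptors, rose less, from 37.3 ± 1.01 to 53.8 ± 3.73 CPM (log2 fold change 0.53), a direction that turned with library size alone (-0.11).

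Slc16a10, which carries aromatic amino acids, stood at 264, 337 and 227 CPM with β-elemene and 42.7, 44.4 and 35.8 CPM with PBS. The β-elemene libraries were the more spread of the groups, and the lowest of them was still far above the highest PBS library (log2 fold change 2.75, SE 0.17, edgeR adjusted p = 6.86e-06). Slc6a6, the taurine carrier, stood at 1190.0, 1029 and 1152 CPM with β-elemene and 459.8, 493 and 490.3 CPM with PBS (log2 fold change 1.22, SE 0.07). It was named after its values were seen, as the second most abundant carrier of the class by CPM with β-elemene. Slc1a2, the glutamate carrier of astrocytes, had its counts almost wholly in the β-elemene libraries, at 8.06, 7.94 and 8.28 CPM against 0.349, 0.272 and 0.351, and reached the count minimum through β-elemene alone. Slc6a12, a betaine and GABA carrier, rose from 0.881 ± 0.122 to 6.98 ± 1.31 CPM, and Slc6a19, a neutral amino acid carrier of gut and kidney, from 0.583 ± 0.101 to 2.78 ± 0.772. These 3 genes remained at low levels in both groups.

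Some carriers of large neutral amino acids and of glutamine were lower, while others, described after them, were higher. Slc7a5, the LAT1 light chain, stood at 5.23, 3.58 and 4.91 CPM with β-elemene and 28.4, 22.03 and 27.6 CPM with PBS. All β-elemene libraries lay below all PBS libraries (log2 fold change -2.50, SE 0.15, edgeR adjusted p = 4.18e-09). Slc1a5, the glutamine carrier ASCT2, stood at 13.1, 12.8 and 10.9 CPM with β-elemene and 60.97, 58.1 and 64.9 CPM with PBS (log2 fold change -2.32, SE 0.08, edgeR adjusted p = 1.81e-11). Slc43a2, the LAT4 carrier, chosen for naming after its values were seen, fell from 325 ± 16.2 to 50.4 ± 5.65 CPM (log2 fold change -2.69), and Slc38a2, the SNAT2 carrier, from 34.5 ± 1.69 to 19.1 ± 1.12 (-0.85). The heavy chain Slc3a2 (CD98), with which the LAT light chains pair, did not follow Slc7a5. It stood at 584, 559.9 and 558 CPM with β-elemene and 462, 510.3 and 468 CPM with PBS (log2 fold change 0.24, SE 0.06, edgeR adjusted p = 0.00261), and its direction turned with library size alone (-0.40) and the upper quartile (-0.075).

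Slc7a8, the LAT2 light chain, which pairs with the same heavy chain as LAT1, went the opposite way, at 544, 492 and 496 CPM with β-elemene and 139, 143 and 136 CPM with PBS (log2 fold change 1.88, SE 0.06, edgeR adjusted p = 6.04e-12). Of the y+L light chains, Slc7a6 fell from 26.2 ± 2.72 to 5.36 ± 0.0301 CPM, and Slc7a7 stood at 37.5 ± 3.69 with β-elemene against 24.5 ± 2.46 with PBS (log2 fold change 0.61, and -0.023 with library size alone). The exons of Slc7a7 share 232 bases with Oxa1l on the opposite strand, which stood at 35.8 CPM on average (log2 fold change -0.50). Ratios within a library do not depend on scaling. Per base of exon, Slc7a8 made up 78.3% to 82.7% in the PBS libraries and 98.7% to 99.03% in the β-elemene libraries of the sum of Slc7a8 and Slc7a5. Slc7a7 made up 53.1% to 60.7% in the PBS libraries and 89.6% to 91.2% in the β-elemene libraries of the sum of Slc7a7 and Slc7a6. In both pairs the groups were apart, and the pairs were chosen after the values were seen, so no test is given.

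The carriers Slc36a1 and Slc36a4 and most of the Slc38 family fell. Slc36a1, the lysosomal carrier PAT1, stood at 14.5, 17.9 and 16.4 CPM with β-elemene and 107, 110.3 and 107 CPM with PBS (log2 fold change -2.73, SE 0.08, edgeR adjusted p = 1.31e-12), with all PBS libraries above 100 CPM. Slc38a9, the arginine sensor of the lysosome, stood at 18.1, 20.4 and 20.2 CPM with β-elemene and 53.2, 51.3 and 50.8 CPM with PBS (log2 fold change -1.40, SE 0.07). Slc36a4 fell from 84.7 ± 2.24 to 49.2 ± 4.18 CPM. Of 6 Slc38 genes, 5 fell and Slc38a6 stood at 0.57 (-0.066 with library size alone), where 40.2% of all genes tested were lower. Slc36a2, Slc6a9 and Slc7a4 reached the count minimum through PBS alone. Slc36a2 stood at 0.211 ± 0.136 CPM with β-elemene against 5.15 ± 1.47 with PBS, Slc6a9, the glycine carrier GlyT1, at 0.311 ± 0.117 against 4.70 ± 0.770, and Slc7a4, a relative of the cationic amino acid carriers, at 0.317 ± 0.199 against 3.24 ± 0.426. The exons of Slc7a4 share 554 bases with P2rx6 on the opposite strand, which was lower as well (log2 fold change -3.20).

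**Figure D3:**
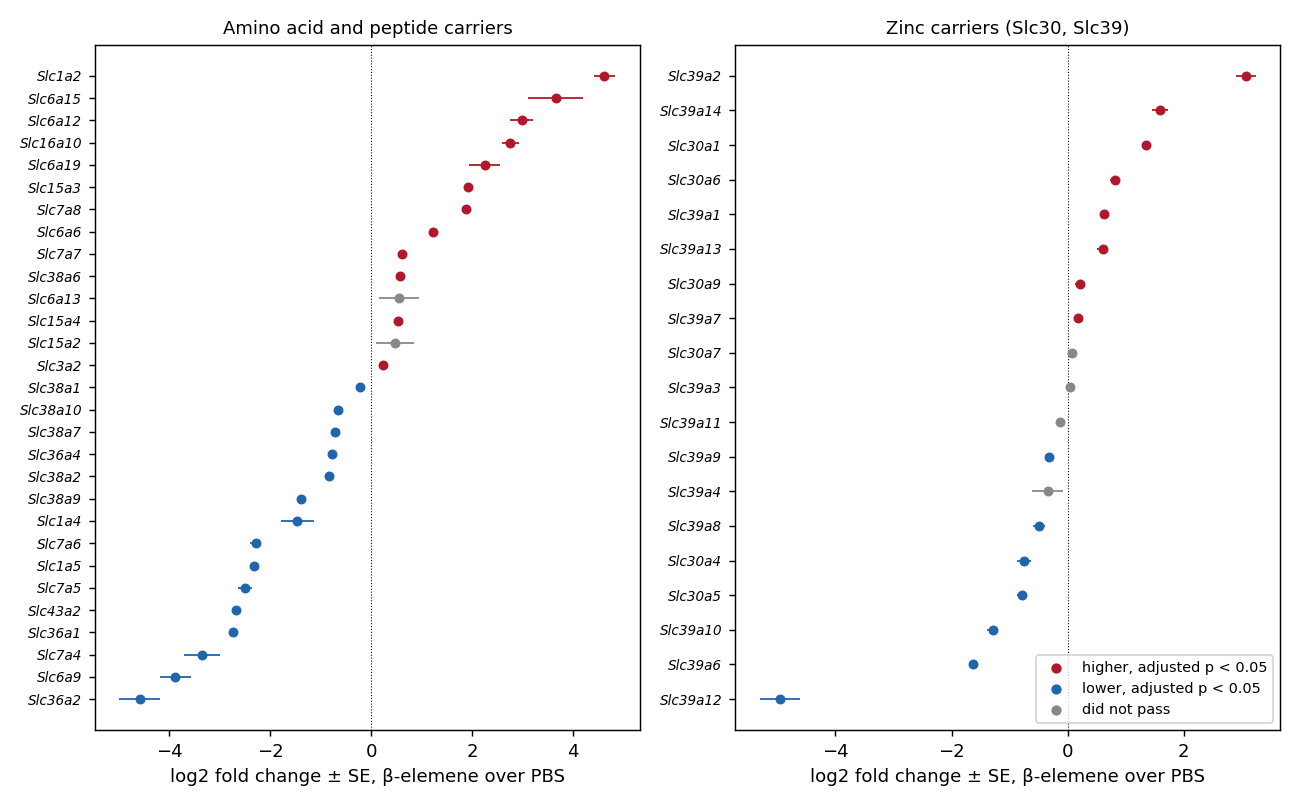
Log2 fold change ± SE of the 29 amino acid and peptide carriers (left) and the 19 zinc carriers (right), ordered by size, red for higher and blue for lower with β-elemene at an edgeR adjusted p below 0.05, grey for genes that did not pass. Slc1a2 at 4.62 and Slc36a2 at -4.59 mark the ends on the left, and Slc39a2 at 3.07 and Slc39a12 at -4.96 those on the right. Slc1a2 and Slc6a15 reached the count minimum through β-elemene alone. Slc36a2, Slc6a9, Slc7a4 and Slc39a12 reached it through PBS alone. These genes had to differ, so their colours are not read as a test.

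Of 13 sugar carriers tested, 9 were lower, 1 was higher and 3 did not pass (12 lower and 1 higher with library size alone), and 7 fell at least 2-fold. Of all genes tested 40.2% were lower and 18.3% at least 2-fold lower. Slc2a6 (chromosome 2, 27021363 to 27028000), which encodes GLUT6, a hexose carrier of lysosomal membranes, was the member that rose. Its level was 1291, 1204 and 1243 CPM with β-elemene and 127, 103 and 175 CPM with PBS. The lowest β-elemene library was far above the highest PBS library, and the spread among PBS libraries was the wider one in proportion (log2 fold change 3.20, SE 0.20, edgeR adjusted p = 7.88e-06). With library size alone the log2 fold change was 2.57.

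Slc37a2, a glucose 6-phosphate exchanger of the endoplasmic reticulum, went the other way, at 71.5, 71.8 and 70.6 CPM with β-elemene and 469, 441 and 404 CPM with PBS (log2 fold change -2.62, SE 0.07, edgeR adjusted p = 5.72e-13). Slc17a5, which encodes sialin, the lysosomal exporter of sialic acid, stood at 16.6, 23.6 and 21.2 CPM with β-elemene and 119, 121 and 122 CPM with PBS (log2 fold change -2.56, SE 0.10, edgeR adjusted p = 1.91e-10). In both genes the groups lay far apart. Slc37a4, the glucose 6-phosphate carrier used by glucose 6-phosphatase, fell from 14.5 ± 0.728 to 5.30 ± 0.770 CPM. The glucose carrier gene Slc2a3 (GLUT3) was low throughout and fell from 4.43 ± 0.410 to 1.23 ± 0.461, Slc2a8 (GLUT8) fell from 9.67 ± 0.969 to 4.75 ± 0.482 and Slc2a9, a urate carrier, from 28.4 ± 0.910 to 16.6 ± 0.900. Among glucose carriers the left-out Slc2a1 (GLUT1) stood at 222, 194 and 188 CPM with β-elemene and 109, 120.3 and 121 CPM with PBS (log2 fold change 0.78). Before scaling, it had 3604, 2977 and 3060 counts with β-elemene and 2817, 3098 and 3111 with PBS. These groups overlapped, so the rise of Slc2a1 depends on the scaling.

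Among 6 carriers of nucleosides, nucleobases and nucleotides, 1 was higher, 4 were lower and 1 did not pass (1 and 5 with library size alone, 1 and 3 of 5 without the member that reached the minimum through PBS alone). The shares over all genes tested were 36.6% higher and 40.2% lower. Slc28a2 (chromosome 2, 122426357 to 122461152), the sodium-coupled carrier of purine nucleosides, stood at 608, 407 and 604 CPM with β-elemene and 36.9, 36.01 and 37.7 CPM with PBS (log2 fold change 3.87, SE 0.17, edgeR adjusted p = 6.64e-07). The β-elemene replicate 2 was the lowest of its group and still above 10 times any PBS library. The neighbouring Gm14085, listed by RefSeq under the symbol Slc28a2b as a second gene of this kind, stood at 124, 106 and 142 CPM with β-elemene against 10.3, 9.60 and 9.71 with PBS (log2 fold change 3.65). Reads shared by the pair could have been split or dropped, so each level is uncertain.

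Of the equilibrative nucleoside carriers, Slc29a2 (ENT2) reached the count minimum through PBS alone, at 0.431, 0.195 and 0.184 CPM with β-elemene and 5.66, 5.13 and 5.65 CPM with PBS. Slc29a1 (ENT1) stood at 42.3 ± 5.02 CPM with β-elemene against 40.98 ± 3.82 with PBS and did not pass (log2 fold change 0.045, adjusted p = 0.665), though with library size alone it was called lower at -0.59. Slc29a3 (ENT3), of lysosomes, fell from 127 ± 3.87 to 105 ± 4.30. Slc17a9, which loads vesicles with nucleotides, fell from 5.31 ± 0.783 to 1.44 ± 0.0292 CPM. The purine nucleobase carrier Slc43a3 stood at 1.48, 2.73 and 3.80 CPM with β-elemene and 5.46, 4.12 and 4.41 CPM with PBS (edgeR adjusted p = 0.0158), a call lost without β-elemene replicate 1 (adjusted p = 0.0651) and without PBS replicate 1 (adjusted p = 0.0656).

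Of 38 mitochondrial carriers of the Slc25 family, 37 were tested, and 10 were higher, 15 lower and 12 did not pass. Beside them, 36.6% of all genes tested were higher and 40.2% lower. With library size alone 7 were higher and 28 lower, and with the upper quartile 8 and 23. The 7 that were called higher under each scaling were Slc25a37, Slc25a22, Slc25a28, Slc25a12, Slc25a43, Slc25a17 and Slc25a25. Slc25a17 is a carrier of peroxisomes, named here with the family.

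The iron carriers of the family rose together. Slc25a37, mitoferrin 1, which brings iron into mitochondria, stood at 157, 153 and 126 CPM with β-elemene and 15.8, 14.7 and 16.1 CPM with PBS (log2 fold change 3.22, SE 0.09, edgeR adjusted p = 2.62e-12). Slc25a28, mitoferrin 2, stood at 32.9, 27.3 and 33.7 CPM with β-elemene and 8.29, 8.31 and 9.75 CPM with PBS (log2 fold change 1.83, SE 0.11, edgeR adjusted p = 2.40e-09). For both, every β-elemene library was above every PBS library. Slc25a22, a carrier of glutamate, stood at 216, 183 and 203 CPM with β-elemene and 27.2, 23.8 and 26.01 CPM with PBS (log2 fold change 2.97, SE 0.08, edgeR adjusted p = 6.66e-13), the lowest adjusted p of the class. Slc25a12, the aspartate and glutamate carrier aralar, stood at 151, 138 and 145 CPM with β-elemene and 51.8, 48.6 and 51.2 CPM with PBS (log2 fold change 1.52, SE 0.06).

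Slc25a13, or citrin, the paralog of aralar with the same substrates, fell from 23.8 ± 1.53 to 12.5 ± 0.187 CPM. Per base of exon, Slc25a12 made up 51.5% to 53.3% in the PBS libraries and 85.2% to 85.98% in the β-elemene libraries of their sum. Slc25a1, the citrate carrier, stood at 76.4 ± 5.25 CPM with β-elemene against 53.9 ± 2.11 with PBS (log2 fold change 0.50, -0.13 with library size alone). The largest falls of the family were smaller than its largest rises. Slc25a42, a coenzyme A carrier, fell by 1.82 on the log2 scale, Slc25a26, which carries S-adenosylmethionine, by 1.37, Slc25a15, an ornithine carrier, by 1.32, and Slc25a30 by 1.06. Further falls at higher levels were those of Slc25a5 (ANT2), from 336 ± 13.99 to 266 ± 12.5 CPM, Slc25a39, which brings glutathione into mitochondria, from 96.1 ± 5.12 to 72.4 ± 3.41, Slc25a51, the NAD carrier, from 61.7 ± 0.839 to 37.3 ± 2.29, and Slc25a32, a carrier of folate and FAD, from 26.6 ± 0.395 to 15.04 ± 1.02. Slc25a29 had too few counts for the test.

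**Figure D4:**
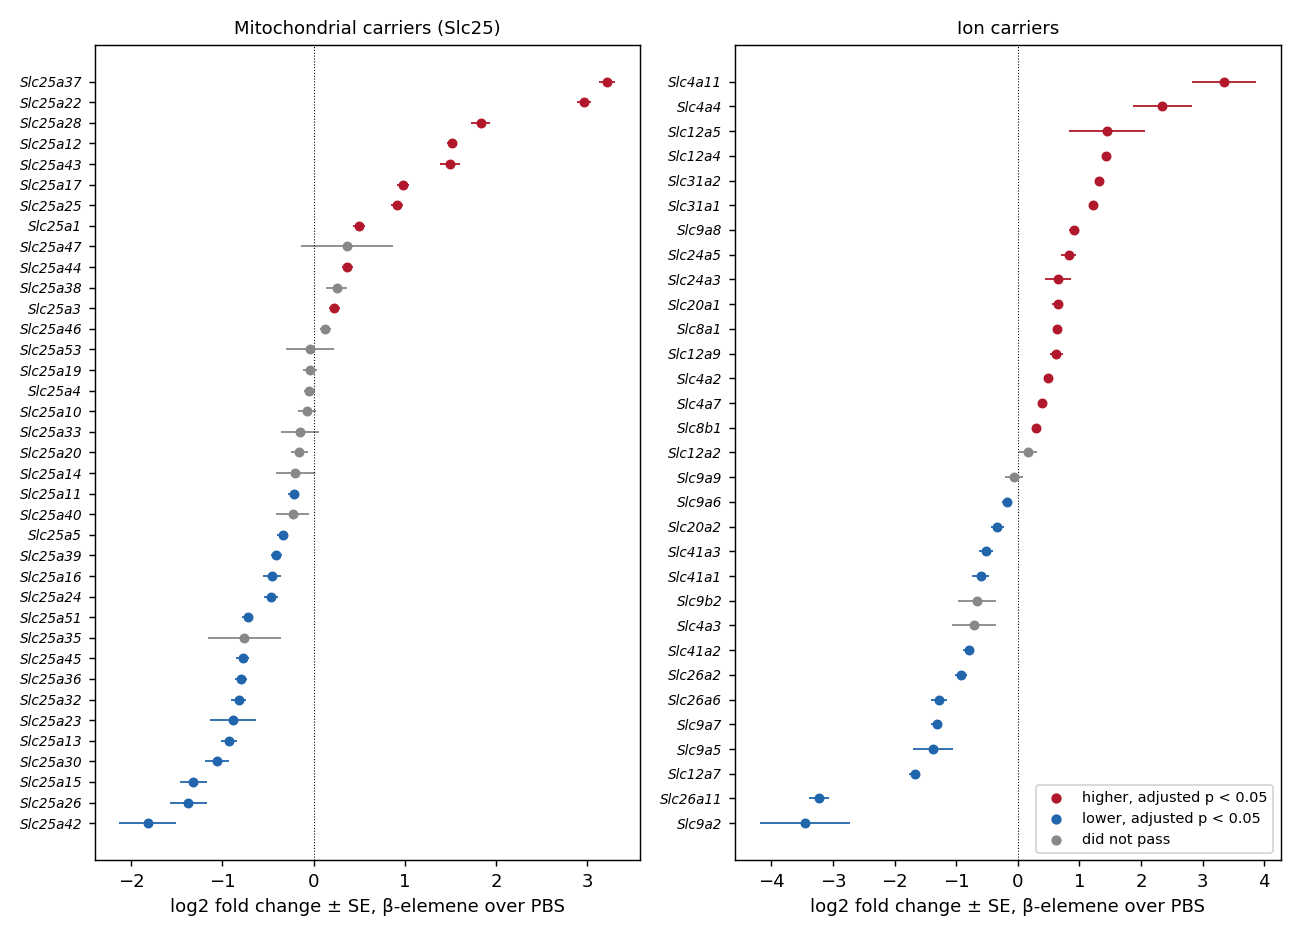
Log2 fold change ± SE of the 37 tested Slc25 carriers (left) and of 31 of the 33 ion carriers (right), ordered by size, colours as in the plot of amino acid and zinc carriers. Slc25a37 and Slc25a22 stand apart on the left at 3.22 and 2.97, and on the right the wide bars belong to genes of low counts such as Slc9a2 and Slc4a11. Slc9a2 reached the count minimum through PBS alone and Slc4a11 through β-elemene alone. They had to differ, so their colours are not read as a test.

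Zinc carriers split about evenly, as did all genes tested, of which 36.6% were higher and 40.2% lower. Of 19 tested, 8 were higher, 7 lower and 4 did not pass (3 and 13 with library size alone, 6 and 12 with the upper quartile, 8 and 6 of 18 without the member that reached the minimum through PBS alone). The 3 that were higher under each scaling were Slc39a2, Slc39a14 and Slc30a1. Slc30a1, the exporter of zinc across the plasma membrane, stood at 79.3, 74.7 and 83.9 CPM with β-elemene and 31.3, 32.9 and 29.2 CPM with PBS (log2 fold change 1.35, SE 0.07, edgeR adjusted p = 6.14e-10). Slc39a14, or ZIP14, which takes up zinc, iron and manganese, stood at 127, 115 and 103 CPM with β-elemene and 38.5, 31.4 and 45.2 CPM with PBS (log2 fold change 1.59, SE 0.13, edgeR adjusted p = 1.00e-05). Slc39a2, another importer, rose from 1.28 ± 0.210 to 10.8 ± 1.07 CPM, with 151 exon bases shared with Mettl17 on the same strand, which was lower (log2 fold change -0.49). In each of these genes the β-elemene libraries lay above all PBS libraries.

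Slc39a6 and Slc39a10, importers that form a complex with each other, both fell, Slc39a6 from 95.4 ± 5.13 to 30.9 ± 1.31 CPM and Slc39a10 from 40.2 ± 2.77 to 16.4 ± 1.70 (log2 fold changes -1.63 and -1.29). Slc39a12 had 2 counts in each β-elemene library, with levels of 0.123, 0.130 and 0.123 CPM against 4.57, 3.65 and 4.02 with PBS, and reached the count minimum through PBS alone. Slc39a8, or ZIP8, the nearest relative of ZIP14, fell from 12.7 ± 0.850 to 9.02 ± 0.566 CPM. Per base of exon, Slc39a14 made up 62.6% to 73.3% in the PBS libraries and 89.8% to 91.00% in the β-elemene libraries of the sum of both. The Golgi exporters Slc30a5 and Slc30a6, which work as a pair, differed in direction, with Slc30a5 at -0.79 and Slc30a6 at 0.81, the latter not called with library size alone (0.18). Slc30a4 fell from 51.4 ± 8.76 to 30.4 ± 2.31. Slc39a1, the most abundant of the class, stood at 317 ± 10.3 CPM with β-elemene against 206 ± 10.1 with PBS (log2 fold change 0.62, -0.017 with library size alone).

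Zinc buffering genes are read beside these carriers. The metallothionein gene Mt2, whose product binds zinc, had 26.5 ± 8.45 CPM with PBS and 90.1 ± 5.53 with β-elemene (log2 fold change 1.77, SE 0.24, edgeR adjusted p = 8.56e-04), while Mt1 stood at 78.8 ± 1.03 with β-elemene against 80.6 ± 13.2 with PBS and did not pass (adjusted p = 0.78). Mtf1, the zinc-sensing transcription factor of metallothioneins and Slc30a1, stood at 24.2 ± 0.509 and 19.1 ± 1.10 CPM (log2 fold change 0.34).

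Promoter sequences are printed for 1 carrier each of the sugar, mitochondrial and zinc classes, with a motif that it holds. These gene and motif pairs were chosen for display. Slc25a37 and Slc39a2 rose more than Slc25a22 and Slc30a1, and the start of Slc39a2 held no metal core, the pattern shown for Slc30a1. The sequences come from RefSeq (GRCm38.p6), run 5′ to 3′ on the gene's strand from 250 bases before to 50 bases after an annotated transcription start, and capitals mark matches, on either strand, to 1 motif per gene. For Slc2a6 (chr2:27027949-27028248, minus strand) the capitals are matches to the kappa B pattern, read as GGG, any 5 bases and CC, of which the last run holds 2 overlapping ones. For Slc25a22 (chr7:141435326-141435625, minus strand) they mark the interferon-stimulated response element, read as GAAA, any 2 bases and GAAA. The table lists 3 starts for this gene, and the one printed is the only one of them with a match. It also holds 3 matches to the kappa B pattern, left in lower case. For Slc30a1 (chr1:191906531-191906830, plus strand) they mark the metal response element core, TGCACNC or TGCGCNC. This stretch also holds 2 kappa B matches and 1 match to the antioxidant response element given below, left in lower case.
Slc2a6: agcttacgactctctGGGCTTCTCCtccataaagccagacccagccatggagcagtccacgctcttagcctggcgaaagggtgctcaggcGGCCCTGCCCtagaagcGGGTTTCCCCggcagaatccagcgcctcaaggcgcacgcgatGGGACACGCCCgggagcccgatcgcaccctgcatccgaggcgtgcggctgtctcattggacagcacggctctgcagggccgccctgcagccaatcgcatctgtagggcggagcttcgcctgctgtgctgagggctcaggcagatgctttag
Slc25a22: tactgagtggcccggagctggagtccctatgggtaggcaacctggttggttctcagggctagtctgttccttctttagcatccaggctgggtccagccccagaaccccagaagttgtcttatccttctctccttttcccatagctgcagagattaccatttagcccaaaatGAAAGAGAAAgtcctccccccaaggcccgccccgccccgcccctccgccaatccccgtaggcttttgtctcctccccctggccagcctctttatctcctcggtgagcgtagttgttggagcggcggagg
Slc30a1: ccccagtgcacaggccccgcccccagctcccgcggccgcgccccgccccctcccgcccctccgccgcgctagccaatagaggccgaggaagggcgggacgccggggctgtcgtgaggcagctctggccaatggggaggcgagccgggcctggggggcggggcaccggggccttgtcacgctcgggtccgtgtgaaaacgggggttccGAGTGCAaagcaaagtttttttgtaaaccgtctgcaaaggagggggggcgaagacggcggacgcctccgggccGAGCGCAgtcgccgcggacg
The matches are descriptions of letters, not binding sites. The kappa B pattern was in 50.8% of all 32851 promoters of this length, the metal core in 25.7% and the interferon element in 3.44%. Of the 28 members called at least 2-fold higher, 21 had a promoter in the table, and 17 of the 21 held the kappa B pattern, 9 the metal core and 1, Slc25a22, the interferon element. Of the 44 called at least 2-fold lower, 31 had a promoter, and 21, 9 and 1 of these genes had a match. Over all genes tested with a promoter the shares were 71.9%, 40.1% and 4.02%. The search also covered the amino acid response element of ATF4 (TGATGNAA), held by 0 of the 21 and 1 of the 31 genes beside 2.77% of genes tested and 3.97% of all promoters, and the antioxidant response element (TGACNNNGC), held by 2 and 6 genes beside 17.3% and 12.4%.

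Ion carriers made up the largest class after the Slc25 family. Of 33 tested, 17 were higher, 12 lower and 4 did not pass, but with library size alone 7 were higher and 20 lower, and with the upper quartile 12 and 15. With TMM, 36.6% of all genes tested were higher and 40.2% lower. Without the 3 members that reached the minimum through 1 group alone, 15 of 30 were higher and 11 lower. The copper carriers rose under each scaling. Slc31a2, a copper carrier homolog of endosomes and lysosomes, stood at 554, 551 and 539 CPM with β-elemene and 206, 223 and 226 CPM with PBS (log2 fold change 1.33, SE 0.06, edgeR adjusted p = 1.39e-10), and Slc31a1, the copper importer CTR1, at 268, 281 and 234 CPM with β-elemene and 107, 109 and 119 CPM with PBS (log2 fold change 1.22, SE 0.07). Neither gene's groups overlapped.

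The potassium and chloride cotransporters, which let cells lose volume, did not all move one way. Slc12a4 (KCC1) went up, at 243, 241 and 222 CPM with β-elemene and 89.98, 85.2 and 87.2 CPM with PBS (log2 fold change 1.43, SE 0.06, edgeR adjusted p = 5.17e-11). Slc12a7 (KCC4) went down, at 38.99, 28.6 and 34.8 CPM with β-elemene and 109.7, 106 and 110.3 CPM with PBS (log2 fold change -1.67, SE 0.09, edgeR adjusted p = 3.67e-09). The groups of neither gene overlapped. The sodium, potassium and chloride cotransporter Slc12a2 stood at 5.80 ± 0.796 and 5.14 ± 0.245 CPM and did not pass, though it was lower with library size alone (-0.47) and at -0.14 with the upper quartile.

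Sodium and proton exchangers differed in direction. Slc9a7, of the trans-Golgi network, fell from 37.98 ± 2.09 to 15.2 ± 1.40 CPM, and Slc9a8, of endosomes and Golgi, rose from 38.4 ± 2.77 to 72.2 ± 5.95. Slc9a5 was low in both groups and fell from 1.68 ± 0.356 to 0.648 ± 0.135 CPM.

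The 3 tested members of the Slc26 family and the 3 of the Slc41 family were lower, where 40.2% of all genes tested were. Slc26a11, a sulfate carrier, stood at 1.91, 1.63 and 1.29 CPM with β-elemene and 13.8, 16.9 and 14.7 CPM with PBS (log2 fold change -3.23, SE 0.16, edgeR adjusted p = 5.48e-10), and Slc26a2 and Slc26a6 fell by 0.92 and 1.28 on the log2 scale. The magnesium carriers Slc41a1, Slc41a2 and Slc41a3 fell by 0.60, 0.80 and 0.52. These families were singled out after their values were seen. The phosphate importers differed, with Slc20a1 at 0.65 (0.011 and not called with library size alone) and Slc20a2 at -0.33, and Slc20a1 made up 67.7% to 70.5% in the PBS libraries and 80.1% to 82.2% in the β-elemene libraries of their sum per exon base. Slc20a2 shares 95 exon bases with Smim19 on the opposite strand, which stood at 11.4 CPM on average (log2 fold change -0.08). Slc8a1, a sodium and calcium exchanger, stood at 0.64 (0.0067 and not called with library size alone). Slc4a11, a low-level member that reached the count minimum through β-elemene alone, stood at 2.34, 2.34 and 1.04 CPM with β-elemene and 0.0387, 0.311 and 0.195 CPM with PBS.

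**Figure D5:**
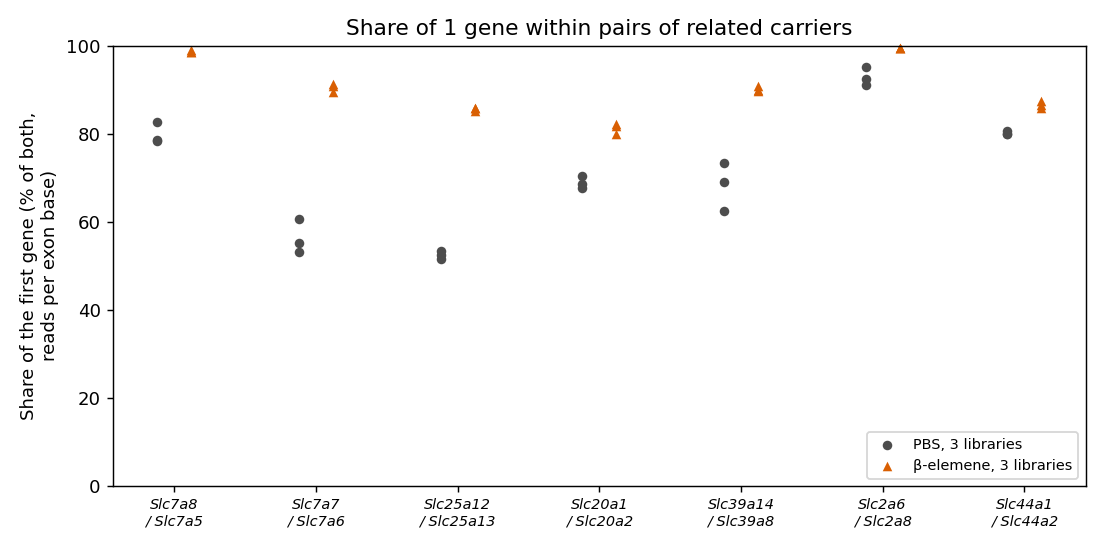
Share of the first gene in 7 pairs of related carriers, as percent of both genes' reads per exon base, with 1 point per library (circles PBS, triangles β-elemene). The shares do not depend on library scaling, and in the pair Slc25a12 and Slc25a13 they are 51.5% to 53.3% with PBS and 85.2% to 85.98% with β-elemene.

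Of 15 vitamin and organic ion carriers tested, 2 were higher, 8 lower and 5 did not pass (2 and 13 with library size alone), where 40.2% of all genes tested were lower. Carriers of folate, thiamine and biotin fell, namely Slc19a1, which imports reduced folate, from 9.01 ± 0.951 to 2.67 ± 0.809 CPM, Slc46a1, the proton-coupled folate carrier, from 9.18 ± 0.984 to 3.04 ± 0.749, and Slc19a2, a thiamine carrier, from 11.6 ± 1.03 to 2.03 ± 0.640. Slc5a6, which takes up biotin and pantothenate, fell from 9.36 ± 0.527 to 2.11 ± 0.283 CPM. Its exons share 396 bases with Atraid on the opposite strand, which was lower as well (log2 fold change -0.87). Slc46a3, a lysosomal relative, fell from 5.07 ± 0.534 to 0.730 ± 0.0615. The vitamin C carrier Slc23a2 went up, at 474, 423 and 439 CPM with β-elemene and 219, 192 and 228 CPM with PBS (log2 fold change 1.06, SE 0.07, edgeR adjusted p = 1.35e-08). Slc6a4, the serotonin carrier, was low and rose from 0.608 ± 0.338 to 5.65 ± 1.54, and Slc6a8, the creatine carrier, fell from 221 ± 20.5 to 115 ± 7.62 CPM.

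The nucleotide sugar class holds all members of the Slc35 family, some of which feed the glycosylation enzymes of the Golgi, and it showed mostly small differences. Of 20 Slc35 genes tested, 2 were higher, 11 lower and 7 did not pass, and with library size alone 0 were higher and 20 lower. With TMM, 36.6% of all genes tested were higher and 40.2% lower. Slc35f6 was the most abundant by CPM and fell from 301 ± 3.78 to 129.7 ± 4.15. Slc35b2, which carries the sulfate donor PAPS, fell by 0.61 on the log2 scale, Slc35c2 by 1.07 and Slc35g1 by 1.54. Slc35a3, a carrier of UDP-N-acetylglucosamine, and Slc35f5 stood at 0.48 and 0.35, directions that turned with library size alone (-0.16 and -0.29).

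Of 6 carboxylate carriers, 2 were higher and 4 lower (0 and 4 with library size alone, 2 and 3 of 5 without the member that reached the minimum through PBS alone). Over all genes tested 36.6% were higher and 40.2% lower, beside which the lipid and choline counts below stand as well. The lactate carriers Slc16a1 (MCT1) and Slc16a3 (MCT4) stood at 38.1, 29.5 and 44.7 CPM with β-elemene and 25.1, 25.5 and 23.6 CPM with PBS and at 69.4, 80.8 and 57.1 CPM with β-elemene and 43.1, 43.5 and 48.5 CPM with PBS, respectively. Both were called higher with log2 fold changes of 0.60 and 0.62, and both directions turned with library size alone (-0.040 and -0.019). Their chaperone Bsg, basigin, stood at 0.30 and its relative Emb, embigin, fell by 0.46. Before scaling, Bsg had 3157, 2971 and 3080 counts with β-elemene and 3961, 3924 and 4158 with PBS, so its direction depends on the scaling. Slc16a6 fell from 36.4 ± 0.680 to 13.8 ± 2.04 CPM, with 1052 exon bases shared with Amz2 on the opposite strand, which was higher (log2 fold change 0.42), and Slc16a13 from 8.63 ± 0.343 to 4.62 ± 0.975. Among 8 lipid and choline carriers, 4 were higher and 3 lower (1 and 5 with library size alone). Slc44a1, the choline carrier CTL1, stood at 267, 288 and 269 CPM with β-elemene and 97.7, 106 and 102 CPM with PBS (log2 fold change 1.43, SE 0.06, edgeR adjusted p = 6.11e-11), and Slc44a2 at 0.75 (0.11 and not called with library size alone). Slc27a1, the fatty acid carrier FATP1, fell from 124 ± 5.16 to 48.9 ± 4.001 CPM, and Slc10a3 fell by 0.35 on the log2 scale. Slc10a3 shares 258 exon bases with Ubl4a on the same strand, which stood at 8.10 CPM on average (log2 fold change -0.24).

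Partners and carriers outside the naming scheme are given from lists fixed with the classes. Of 12 genes of lysosomal amino acid sensing, 4 were higher, 6 lower and 2 did not pass. Among all genes tested 36.6% were higher and 40.2% lower. Before scaling, the higher-called Rraga had 758, 658 and 765 counts with β-elemene and 928, 891 and 929 with PBS. Lamtor5 had 1036, 998 and 1104 against 1213, 1194 and 1255, and Fnip2 4318, 3757 and 4927 against 5504, 5487 and 5488. The directions of these genes therefore depend on the scaling, while Rragc was higher before scaling as well. Rragd, a Rag GTPase, fell from 33.04 ± 2.98 to 3.35 ± 0.644 CPM and Flcn, folliculin, from 56.1 ± 1.23 to 18.4 ± 1.48, while Rragc rose from 118 ± 2.84 to 293 ± 19.3. Of 7 chaperones and scaffolds, 2 were higher and 3 lower. The higher ones were Bsg and Slc9a3r1, whose counts before scaling were lower with β-elemene (1194, 1182 and 1316 against 1466, 1529 and 1359 for Slc9a3r1). Of 30 carriers with other names, 27 were matched in the table and 23 tested, with 9 higher and 10 lower. Slco3a1 and Slco2b1, organic anion carriers, differed in direction. Slco3a1 stood at 321, 261 and 320.2 CPM with β-elemene and 10.1, 9.21 and 13.4 CPM with PBS (log2 fold change 4.78, SE 0.15, edgeR adjusted p = 1.43e-08) and Slco2b1 at 0.492, 0.651 and 0.613 CPM with β-elemene and 12.5, 13.5 and 10.3 CPM with PBS (log2 fold change -4.36, SE 0.21, edgeR adjusted p = 3.33e-10). Sfxn5 fell by 2.0, and Mfsd14b stood at 1.45.

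The 8 carriers left out of the set were called higher in 5 cases and lower in 2, and 1 did not pass. Slc7a2 stood at 0.64, Slc7a11 at 1.26, Slc2a1 at 0.78, Slc11a1 at 0.34 and Slc11a2 at 1.44 on the log2 scale, with Slc7a1 at -0.47, Slc48a1 at -1.21 and Slc40a1 at -0.32. Before scaling, Slc11a1 had 3789, 3565 and 3589 counts with β-elemene and 4455, 5058 and 4414 with PBS, and the groups of Slc7a2 and of Slc2a1 overlapped. The rises of Slc11a1, Slc7a2 and Slc2a1 therefore depend on the scaling.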

How the data were processed

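RNA was measured in 6 mouse macrophage libraries, 3 per group, assigned by their titles. Stranded poly(A) libraries were read as paired ends, per the labels' protocols. Per the submitters' processing notes the tools include HISAT2 (2.2.1.0) and the builds are GRCm38.p6 and mm10. How reads were counted, and with which strand setting, is not given in the sources used here. The deposited values are whole-number counts for each gene. The members and lists were chosen with earlier results of these data known. From the counts, filterByExpr kept genes (minimum count of 10 and total of 15), TMM scaled the libraries (factors 0.794 to 0.812 for β-elemene, 1.24 to 1.26 for PBS) and edgeR 4.0.16 (R 4.3.3; robust quasi-likelihood) tested each gene, group as the only term, with Benjamini-Hochberg adjustment over all 11459 genes at 0.05. The SE came from the fold change and the F statistic. Classes followed family and known substrate. The genes named were, at or above 1 CPM on average, the 4 largest rises and falls whose groups did not overlap in each of 6 classes (2 in the others), the most abundant member and a fixed panel, and 31 more chosen after values were seen. Exon lengths are unions of GENCODE M21 exons (GRCm38), and all 187 members matched. Alternatives were 3 scalings, 2 filters, DESeq2 1.42.0, limma-voom (3.58.1), a replicate block and leaving out each library. The steps were tested on simulated counts. No replicate pair agreed within sampling noise (chi-square per degree of freedom 3.83 to 13.9). Of the members, 2 ion carriers are counted but not reported here by name, and 18 share exon bases with another tested gene.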

Additional observations from a re-analysis of the deposited data

How the results depend on the processing

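Library size alone in place of TMM gave 30 members higher and 136 lower, with 7 and 20 for ion carriers, 3 and 13 for zinc carriers and 28 lower for Slc25 carriers, and the upper quartile gave 12 lower for zinc and 23 lower for Slc25 carriers. These scalings move the median of all genes. The other counts of all members and of amino acid, sugar, ion, zinc, nucleoside and Slc25 carriers under these scalings, and all of those under median-of-ratios scaling, both other filters, DESeq2, limma-voom and the members through both groups only (an alternative chosen after seeing the data), stayed within 1.5 times the values given with TMM. Among the smaller classes, library size alone moved nucleotide sugar carriers from 2 higher and 11 lower to 0 and 20, vitamin and organic ion carriers from 8 lower to 13, lipid and choline carriers from 4 and 3 to 1 and 5, and carboxylate carriers from 2 higher to 0, and the upper quartile left 1 higher in both the nucleotide sugar and carboxylate classes. Over leaving out each library, members higher ranged from 57 to 61 and lower from 83 to 91. Between libraries with the same replicate number in their titles, correlations of deviations were -0.024 to 0.077, which cannot tell if the samples were paired. With a replicate block 59 members were higher and 88 lower. Among named members, the log2 fold changes that turned negative with library size alone were Slc15a4 (-0.11), Slc38a6 (-0.066), Slc3a2 (-0.40), Slc7a7 (-0.023), Slc12a2 (-0.47), Slc25a1 (-0.13), Slc16a1 (-0.040), Slc16a3 (-0.019), Slc29a1 (-0.59), Slc35a3 (-0.16), Slc35f5 (-0.29) and Slc39a1 (-0.017). With the upper quartile they were Slc3a2 (-0.075), Slc12a2 (-0.14) and Slc29a1 (-0.27), and Slc29a1, which did not pass, ranged from -0.023 (without β-elemene replicate 2) to 0.14 over leaving out each library and was negative without PBS replicate 3 as well. Of 106 named members, 89 kept direction and side of the threshold in all 14 alternatives. Partners, markers and the carriers left out of the set are not among these. Some rises among them, such as those of Lyz2, S100a9 and Slc2a1, depend on the scaling as well. Depth limits genes under 1 CPM, where a few counts set the fold.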
